A study of Mesocricetus auratus with 21 samples.

Results

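*Abcc8*, *Adgrv1*, *C1ql1*, *Cspg5*, *Dock3* and *Arhgap32* are 6 of the 22285 genes counted in the testis RNA-seq of *Mov10l1*-/- golden hamsters. They were selected on their measured levels, because each had a higher level in *Mov10l1*-/- than in wild-type testes at 0 days postpartum (d.p.p.) and a lower level at 9 d.p.p., so the values and calls given for these ages describe the choice and test nothing. The values of the 3 later ages did not enter it and were tested. MOV10L1 is an RNA helicase needed to make piRNAs, the small RNAs that restrain retrotransposons in the germ line.

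Whole testes of wild-type and *Mov10l1*-/- golden hamsters were sequenced after depletion of ribosomal RNA, with 2 libraries per genotype at 0, 9, 13 and 21 d.p.p. and in adults, and 1 further wild-type library at 9 d.p.p., which makes 21 libraries. The mutant allele lacks exon 20 of *Mov10l1*, was made with CRISPR-Cas9 and came from 1 transmitting founder female, so the knockout groups carry a single allele. The adult wild types were 65 and 23 weeks old and the adult mutants 63 and 53 weeks old. Libraries of 0 and 9 d.p.p. were read as single ends of 75 nt and the 12 libraries of the older ages as paired ends of 150 nt, so levels are set side by side only within one layout. Both 9 d.p.p. *Mov10l1*-/- libraries came from the same animal, which leaves no measure of variation among mutant animals of that age. Both 0 d.p.p. mutants shared an animal code (So843) that neither 0 d.p.p. wild type carried, so genotype and animal code cannot be told apart at that age. The same holds for the main fit of 9 d.p.p., where the first 2 wild types shared the code So802 and the mutant animal carried So820. Only the third wild type of 9 d.p.p. carried So820 as well.

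The 6 genes are best known from the nervous system and from excitable or sensory cells, and their proteins sit at successive places from the extracellular space to the cytoskeleton. *C1ql1* encodes a secreted C1q-like protein that organises synapses, and *Cspg5* encodes neuroglycan C, a chondroitin sulfate proteoglycan that spans the membrane of brain cells. *Adgrv1* encodes a very large adhesion G-protein-coupled receptor of hair cells and photoreceptors, and *Abcc8* encodes SUR1, the regulatory subunit of the ATP-sensitive potassium channel of pancreatic beta cells and neurons. *Dock3* encodes a brain activator of the small GTPase RAC1, and *Arhgap32* encodes a GTPase-activating protein that is found at synapses.

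On the MesAur1.0 assembly, the genes lay on 5 scaffolds. *C1ql1* (ENSMAUG00000021726) spanned bases 19415191 to 19422455 of KB708147.1 on the minus strand, and *Adgrv1* (ENSMAUG00000021704) spanned 31168308 to 31400608 of KB708130.1 on the plus strand. *Abcc8* (ENSMAUG00000007029) spanned 573565 to 646198 of KB708302.1 on the plus strand, and *Arhgap32* (ENSMAUG00000016693) spanned 1950051 to 2097230 of KB708295.1 on the minus strand. Only *Cspg5* (ENSMAUG00000011389, plus strand, 5588572 to 5601695) and *Dock3* (ENSMAUG00000011513, minus strand, 2961025 to 3269181) shared a scaffold, KB708177.1, and 2319390 bases lay between them. All counts were made over annotated exons.

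Library totals ran from 3550217 to 77527451 estimated counts, with the lowest in the wild types of 13 d.p.p. (3550217 and 9278866). Levels are given as counts per 1000000 library counts (CPM), scaled by the trimmed mean of M-values (TMM). *Mov10l1*, the targeted gene, lay between 18.2 and 139 CPM in wild types (11 libraries) and between 0.127 and 10.8 CPM in *Mov10l1*-/- testes (10 libraries), and at every age all mutants lay below all wild types. Its highest mutant levels, 10.8 and 10.2 CPM, were those of 0 d.p.p. A gene was called where edgeR (quasi-likelihood F-test) gave an adjusted p under 0.01. The labels do not say for every library that it came from a separate litter or preparation, so the p-values measure the spread between these libraries.

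At 0 d.p.p. all 6 genes were higher in *Mov10l1*-/- testes, by 1.61-fold to 4.16-fold, and at 9 d.p.p. all were lower, by 1.49-fold to 2.40-fold, when the first 2 wild-type libraries of that age were used. *C1ql1* had the largest difference at both ages. Its level at 0 d.p.p. was 3.14 and 1.61 CPM in wild types against 11.4 and 9.40 CPM in mutants. At 9 d.p.p. it was 2.31 and 2.48 CPM in the first 2 wild types and 0.968 and 1.07 CPM in the mutants. The third wild type of 9 d.p.p. stood apart, with 0.338 CPM from 20 counts, which is below both mutant libraries.

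*Cspg5*, the proteoglycan gene, was at 9.11 and 7.38 CPM in wild types and at 23.8 and 19.6 CPM in mutants at 0 d.p.p. Its level at 9 d.p.p. was 9.36 and 10.5 CPM in the first 2 wild types, 4.87 CPM in the third and 4.24 and 4.57 CPM in the mutants. The third wild type thus lay just above the mutants for this gene, and the groups did not overlap.

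For the adhesion receptor and the channel subunit, the difference at birth was larger in *Adgrv1* than in *Abcc8*. *Adgrv1* had 21.9 and 13.9 CPM in wild types and 46.9 and 48.9 CPM in mutants at 0 d.p.p. At 9 d.p.p. it had 8.02, 6.55 and 7.39 CPM in the 3 wild types and 4.10 and 4.48 CPM in the mutants, and here the third wild type lay between the other two. *Abcc8* had 16 and 13.5 CPM in wild types and 24.9 CPM in each of the mutants at 0 d.p.p. At 9 d.p.p. it had 7.38, 7.22 and 4.79 CPM in wild types and 3.59 and 3.23 CPM in mutants, with no overlap at either age.

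*Dock3* and *Arhgap32*, the regulators of small GTPases, included the smallest differences, that of *Dock3* at birth and that of *Arhgap32* at 9 d.p.p. *Dock3* had 14.2 and 13.9 CPM in wild types and 22.4 and 23.3 CPM in mutants at 0 d.p.p., then 8.80, 8.45 and 6.53 CPM in wild types and 5.02 and 4.36 CPM in mutants at 9 d.p.p. *Arhgap32* had 342 and 238 CPM in wild types and 530 and 513 CPM in mutants at 0 d.p.p. At 9 d.p.p. it had 91.8, 81.8 and 64.9 CPM in wild types and 60.1 and 59.1 CPM in mutants, so that the third wild type again lay close to the mutants.

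**Figure D1:**
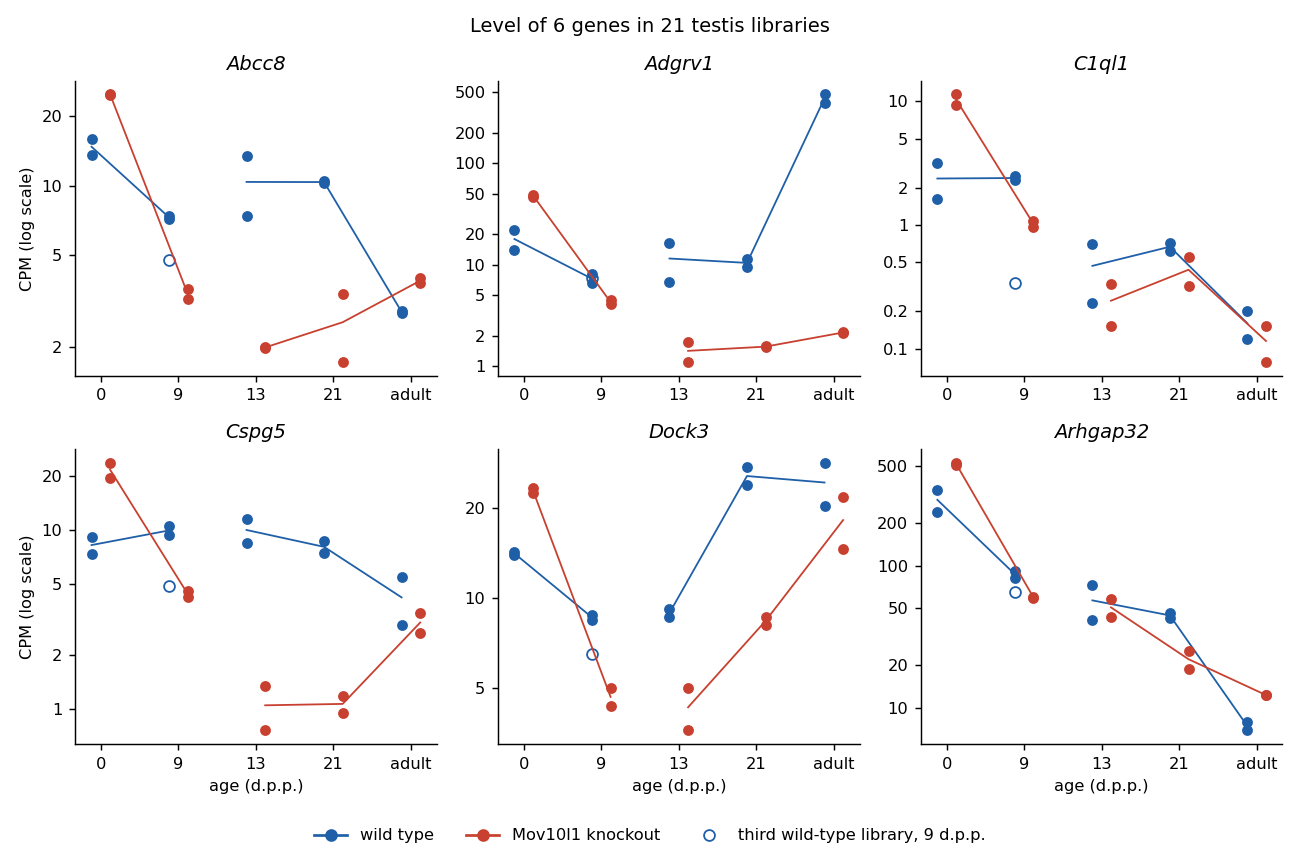
Level of the 6 genes (CPM, log scale) at 0, 9, 13 and 21 d.p.p. and in adults; each point is 1 library, blue for wild type and red for *Mov10l1*-/-, lines join group means within a read layout, and the open circle is the third wild-type library of 9 d.p.p., left out of the mean. Red lies above blue at 0 d.p.p. and below it at 9 d.p.p. in every panel, apart from the open circle of *C1ql1* at 0.338 CPM, and wild-type *Adgrv1* climbs to 393 and 474 CPM in adults.

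The log2 fold changes of mutants over wild types at 0 d.p.p. were 2.06 ± 0.251 (SE, 2 libraries per group) for *C1ql1*, 1.37 ± 0.155 for *Cspg5*, 1.40 ± 0.171 for *Adgrv1*, 0.74 ± 0.132 for *Abcc8*, 0.68 ± 0.127 for *Dock3* and 0.84 ± 0.158 for *Arhgap32*. All 6 belonged to the 0.991% of 16341 genes that were called higher in mutants at birth. At 9 d.p.p. they were -1.27 ± 0.169, -1.21 ± 0.116, -0.80 ± 0.13, -1.13 ± 0.117, -0.91 ± 0.117 and -0.58 ± 0.0727 in the same order. All 6 were among those called lower, 3.20% of the 15570 genes tested. These counts follow from how the genes were chosen. With the third wild type included, 65 of 15776 genes (0.412%) and none of the 6 were called at 9 d.p.p., and the log2 fold changes of the 6 lay between -0.96 and -0.45. With the mutant libraries of that animal also summed into 1, edgeR called 0 of 16275 genes, 1522 had an unadjusted p below 0.05, and the 6 genes had values between -0.96 and -0.45.

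The genes lay near the edgeR threshold to different degrees at 0 and 9 d.p.p., which is given as a description only. *Arhgap32* (adjusted p of 0.00988) and *Dock3* (0.00941) were the closest to it at 0 d.p.p., and *Adgrv1* (0.00881) was the closest at 9 d.p.p. In DESeq2 the adjusted p was 2.4e-05 for *Arhgap32* and 0.00100 for *Dock3* at 0 d.p.p., and 2.5e-04 for *Adgrv1* at 9 d.p.p. Of 14161 genes with at least 10 counts in each of the 9 libraries of these ages, 1304 (9.21%) had both mutants above both wild types at 0 d.p.p. and below the first 2 wild types at 9 d.p.p., and 717 kept both mutants below the third wild type too. A name was at hand for 1042 of the 22285 genes, those in the study's lists of genes that differed by genotype in oocytes or in testes of 0 or 9 d.p.p. Among those, 33 were called in the same directions at both ages, including the 6 genes, and 3 were called the other way at each age. The study chose these names in part on the same libraries, so neither count is a rate among all genes.

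The opposite signs at the 2 ages came with a steeper difference between ages in mutants than in wild types. From 0 to 9 d.p.p. the log2 level in *Mov10l1*-/- testes differed by -3.44 in *Adgrv1*, -3.30 in *C1ql1*, -3.09 in *Arhgap32*, -2.82 in *Abcc8*, -2.25 in *Cspg5* and -2.24 in *Dock3*. In wild types it differed by -1.72 in *Arhgap32*, -1.28 in *Adgrv1*, -1.0 in *Abcc8*, -0.69 in *Dock3*, -0.01 in *C1ql1* and 0.28 in *Cspg5*. The wild-type value of *Cspg5* was -0.22 when libraries were scaled by their totals, which moved the median over all genes from 0.01 to -0.49. A steeper difference in mutants follows from how the genes were chosen, since these libraries are the ones that chose them.

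At 13 d.p.p. *Adgrv1*, *Cspg5*, *Abcc8* and *Dock3* had both mutant libraries below both wild-type libraries, but none of the 5 genes tested was called. *Cspg5* had 8.47 and 11.5 CPM in wild types and 1.34 and 0.761 CPM in mutants, a log2 fold change of -3.39 ± 0.497 (edgeR, adjusted p = 0.0223). *Adgrv1* had 6.78 and 16.3 CPM in wild types and 1.75 and 1.10 CPM in mutants, a log2 fold change of -3.15 ± 0.580 (edgeR, adjusted p = 0.0489). *Abcc8* had 7.37 and 13.4 CPM in wild types and 2.01 and 1.98 CPM in mutants, a log2 fold change of -2.48 ± 0.466 (edgeR, adjusted p = 0.0533).

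These values were thus 5.59 to 10.5 times lower in mutants and missed the threshold without a block, at an age at which 16 of 13254 genes (0.121%) were called, all of them lower. Of all genes with a mean of at least 10 counts, 19.1% had both mutants below both wild types. *Cspg5*, *Adgrv1* and *Abcc8* were called in the joint fit of the 12 paired-end libraries, which called 2.06% of genes, with values of -3.33, -3.04 and -2.38, and DESeq2, which called 2.32%, called the same 3. At this age the replicate numbers coincide with the animal codes F60 and F64, and with the number as a block edgeR called 3.70% of genes and the same 3, at -3.40, -3.07 and -2.45 with adjusted p from 6.0e-09 to 1.9e-05, on 1 residual degree of freedom. *Dock3* had 8.67 and 9.19 CPM in wild types and 5.03 and 3.62 CPM in mutants (log2 fold change -1.16 ± 0.389, edgeR, adjusted p = 0.322). *Arhgap32* overlapped between the genotypes, with 72.5 and 41.2 CPM in wild types and 58.2 and 43.3 CPM in mutants (-0.26 ± 0.347, edgeR, adjusted p = 0.784), and its sign turned to 0.16 without the first wild type.

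*C1ql1* had only 7 and 1 counts in wild types and 5 and 5 in mutants at 13 d.p.p. and did not pass the filter on low counts, so a difference was not detectable at this depth.

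At 21 d.p.p. all 6 genes had both mutant libraries below both wild types, as did 32.4% of genes with a mean of at least 10 counts, and 5 of the 6 fell past the threshold. Genes called lower made up 20.9% of the 14849 tested. *Cspg5* had 7.41 and 8.71 CPM in wild types and 0.956 and 1.19 CPM in mutants, 8.35-fold lower (log2 fold change -3.06 ± 0.318, edgeR, adjusted p = 2.1e-04). *Adgrv1* had 11.4 and 9.49 CPM in wild types and 1.59 and 1.53 CPM in mutants, 7.48-fold lower (-2.90 ± 0.285, edgeR, adjusted p = 1.6e-04). *Abcc8* had 10.2 and 10.5 CPM in wild types and 1.72 and 3.41 CPM in mutants, 4.43-fold lower (-2.15 ± 0.344, edgeR, adjusted p = 0.00141).

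The regulators of small GTPases had smaller differences at 21 d.p.p. *Dock3* had 27.3 and 23.8 CPM in wild types and 8.16 and 8.65 CPM in mutants, 3.41-fold lower (log2 fold change -1.77 ± 0.198, edgeR, adjusted p = 2.9e-04). *Arhgap32* had 46.4 and 42.6 CPM in wild types and 18.8 and 25.0 CPM in mutants, 2.28-fold lower (-1.19 ± 0.197, edgeR, adjusted p = 0.00163), and was not called without the first mutant library (-0.99, adjusted p = 0.0175). *C1ql1* had 5 and 11 counts in wild types and 5 and 19 in mutants, and its log2 fold change of -0.73 ± 0.528 was not called (edgeR, adjusted p = 0.270). The median log2 fold change of the 6 genes was -1.96, against 0.04 over all genes tested.

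**Figure D2:**
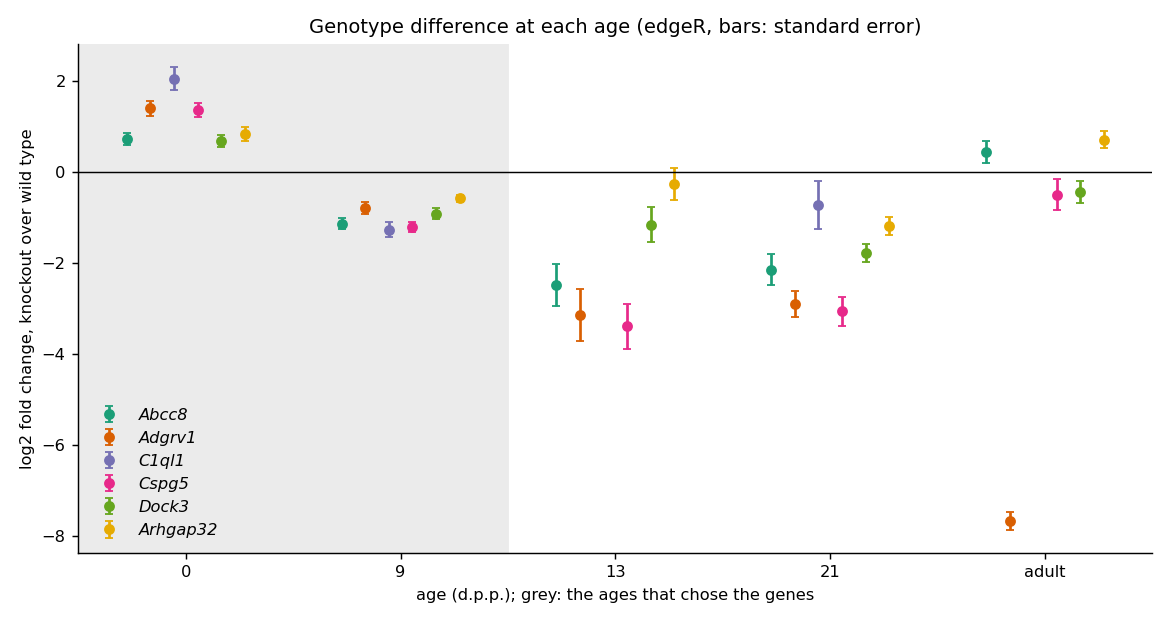
Log2 fold change of *Mov10l1*-/- over wild-type testes (vertical axis) at each age (horizontal axis) for the 6 genes, with bars of 1 standard error from edgeR (2 libraries per group) and the ages that chose the genes on grey. Values lie between 0.68 and 2.06 at 0 d.p.p., below 0 from 9 to 21 d.p.p., and on both sides of 0 in adults, where *Adgrv1* is at -7.67; *C1ql1* was not tested at 13 d.p.p. or in adults.

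In adults the genes parted. *Adgrv1* was at 393 and 474 CPM in wild types and at 2.17 and 2.14 CPM in *Mov10l1*-/- testes, 203-fold lower (log2 fold change -7.67 ± 0.197, edgeR, adjusted p = 1.5e-07). Its value lay between -7.84 and -7.51 whichever single library was left out. *Arhgap32* was higher in mutants, with 12.3 and 12.2 CPM against 6.90 and 7.90 CPM in wild types (0.72 ± 0.182, edgeR, adjusted p = 0.00822).

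The call of *Arhgap32* in adults depended on the scaling. The median log2 fold change over all adult genes was 0.14 with TMM and -0.06 with the size factors of DESeq2 in edgeR, and with the latter *Arhgap32* was at 0.51 with an adjusted p of 0.0381. Without the first wild type, the first mutant or the second mutant it was at 0.57, 0.70 and 0.72, none of them called.

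The other genes were not called in adults. *Abcc8* had 2.81 and 2.88 CPM in wild types and 3.79 and 3.97 CPM in mutants, with no overlap (log2 fold change 0.43 ± 0.240, edgeR, adjusted p = 0.131). *Cspg5* overlapped, with 5.47 and 2.95 CPM in wild types and 2.67 and 3.42 CPM in mutants (-0.50 ± 0.336, adjusted p = 0.202 in edgeR). *Dock3* overlapped too, with 28.3 and 20.3 CPM in wild types and 14.6 and 21.8 CPM in mutants (-0.44 ± 0.235, adjusted p = 0.123 in edgeR).

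*C1ql1* was at 3 and 3 counts in adult wild types and 2 and 5 in adult mutants and was not tested. In all, 2 of 5 genes tested were called in adults, where 74.4% of 15766 genes were called, the largest share among the 5 ages. Both mutants lay above both wild types in 48.8% and below them in 43.6% of genes with a mean of at least 10 counts.

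The change in the genotype difference between ages was tested in the joint fit. Against 21 d.p.p., the adult difference had moved in 4 of the 6 genes, *Adgrv1* downward and *Cspg5*, *Arhgap32* and *Abcc8* upward, where 29.9% of 16580 genes were called. Against 13 d.p.p. it had moved in *Adgrv1*, *Cspg5* and *Abcc8* in the same directions, where 45.4% were called, and between 13 and 21 d.p.p. in none of the 6, where 4.04% were called.

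Between 21 d.p.p. and adulthood the wild types gained *Adgrv1* and lost *Arhgap32* and *Abcc8*. Wild-type *Adgrv1* rose 39.6-fold (log2 fold change 5.31 ± 0.289, edgeR, adjusted p = 5.8e-06), while the mutants had no such gain, with 1.59 and 1.53 CPM at 21 d.p.p. and 2.17 and 2.14 CPM in adults (0.39 ± 0.261, edgeR, adjusted p = 0.258). Wild-type *Arhgap32* fell 6.37-fold (-2.67 ± 0.190, edgeR, adjusted p = 2.4e-05) and wild-type *Abcc8* fell 3.86-fold (-1.95 ± 0.257, edgeR, adjusted p = 4.6e-04). In wild types 28.9% of genes were called higher and 22.9% lower in this step, out of 15287, and scaling by library totals turned this split from 55.7% to 42.3% higher among the genes called.

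Wild-type *Cspg5* (-1.01 ± 0.334, edgeR, adjusted p = 0.0285) and *Dock3* (-0.15 ± 0.200, adjusted p = 0.527) were not called. In mutants *Cspg5* rose from 0.956 and 1.19 CPM to 2.67 and 3.42 CPM (1.40 ± 0.286, edgeR, adjusted p = 0.00747), *Dock3* rose from 8.16 and 8.65 CPM to 14.6 and 21.8 CPM (1.03 ± 0.206, adjusted p = 0.00678) and *Arhgap32* fell (-0.93 ± 0.164, adjusted p = 0.00428). Of 14551 genes, 16.4% were called higher and 13.2% lower in this step in mutants, and library totals moved the share of higher calls from 55.3% to 65.8%. Each of these 3 calls was lost when 1 of certain libraries was left out: either mutant of 21 d.p.p. or the second adult mutant for *Dock3*, any of the 4 for *Cspg5*, and the second mutant of either age for *Arhgap32*. The values then ranged from 0.74 to 1.06, from 1.24 to 1.58 and from -0.90 to -0.71.

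Between 13 and 21 d.p.p. 1 of the 6 genes was called, in mutants. In wild types none of the 5 genes tested was called, where 4.15% of 13189 genes were, and *Dock3* had the largest value (1.55 ± 0.352, edgeR, adjusted p = 0.0229). In mutants *Arhgap32* fell from 58.2 and 43.3 CPM to 18.8 and 25.0 CPM (log2 fold change -1.28 ± 0.219, edgeR, adjusted p = 0.00494), where 4.85% of 14020 genes were called lower (50.9% of the genes called, and 73.9% with library totals), and without the first mutant of 21 d.p.p. it was at -1.10 with an adjusted p of 0.0154. The other 5 genes were not called in mutants. No animal was sampled at more than 1 age, so age and animal cannot be told apart.

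The order of the group means differed from gene to gene among the paired-end libraries. *Adgrv1* was highest in adult wild types (434 ± 57.8 CPM, SD, n = 2), followed by wild types of 13 and 21 d.p.p., which overlapped, and then the mutants, of which those of 21 and 13 d.p.p. overlapped. *Abcc8* and *Cspg5* were both highest in the wild types of 13 and 21 d.p.p., which overlapped, and lowest in the mutants of 21 and 13 d.p.p., which also overlapped. The means of the adults lay between these. Adult wild types overlapped adult mutants for *Cspg5*, and for *Abcc8* they overlapped the mutants of 21 d.p.p., of which the higher was at 3.41 CPM.

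*Dock3* was highest in wild types of 21 d.p.p. (25.5 ± 2.46 CPM, SD, n = 2), which overlapped adult wild types, and these overlapped adult mutants. Below them the wild types of 13 d.p.p., the mutants of 21 d.p.p. and the mutants of 13 d.p.p. followed without overlap. *Arhgap32* ran with age, from wild types and mutants of 13 d.p.p., which overlapped each other, to adult wild types (7.40 ± 0.709 CPM, SD, n = 2), the lowest group. All neighbouring groups of *C1ql1* overlapped in these libraries. Among the single-end libraries, mutants of 0 d.p.p. were highest and mutants of 9 d.p.p. lowest for every gene by mean, and only *C1ql1* and *Cspg5* had neighbours that overlapped.

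Some mutants shared an animal code with a wild type of the same age, and within these codes the signs mostly held. At 13 d.p.p. the log2 ratio of mutant to wild type in the codes F60 and F64 was -1.87 and -2.76 for *Abcc8*, -1.96 and -3.89 for *Adgrv1*, and -2.66 and -3.92 for *Cspg5*. It was -0.78 and -1.34 for *Dock3*, and -0.32 and 0.07 for *Arhgap32*. At 21 d.p.p. the ratio in the code F58 was -2.61, -2.57, -3.19, -1.54 and -1.18 in the same order of genes.

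At 9 d.p.p. the mutant animal shared its code, So820, with the third wild type, the one left out above. Here the ratios were -0.79 for *Adgrv1*, -0.49 for *Abcc8*, -0.48 for *Dock3*, -0.15 for *Cspg5* and -0.12 for *Arhgap32*, and *C1ql1* was higher in the mutant by 1.59. No 0 d.p.p. wild type shared a code with the mutants. Each ratio rests on 1 animal per genotype and has no replicate check, and the labels do not say what a code stands for.

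**Figure D3:**
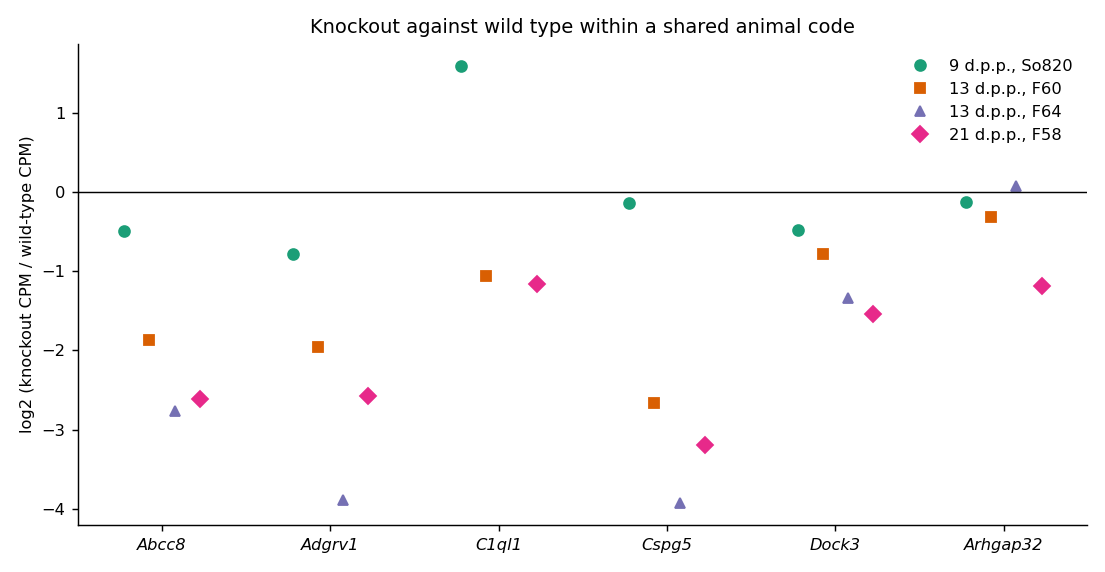
Log2 ratio of *Mov10l1*-/- to wild-type CPM (vertical axis) for the 6 genes (horizontal axis) in animals that share a code, 1 animal per genotype; the mutant value of So820 is the mean of 2 libraries, and *C1ql1* in F64 is not drawn because the wild type had 1 count. Points for *Abcc8*, *Adgrv1*, *Cspg5* and *Dock3* lie below 0 in all 4 codes, *Arhgap32* reaches 0.07 and *C1ql1* reaches 1.59.

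The 6 genes did not follow a single pattern across libraries. Over all 21 libraries Pearson's r of the log2 levels was highest between *Abcc8* and *Cspg5* (0.90) and between *C1ql1* and *Arhgap32* (0.88), and lowest between *Dock3* and *Arhgap32* (-0.03). Over the 12 paired-end libraries, which did not choose the genes, *Abcc8* and *Cspg5* remained at 0.89, whereas *Adgrv1* and *Arhgap32* were at -0.51 and *Dock3* and *Arhgap32* at -0.52. These values describe libraries that share age, depth and cell makeup.

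**Figure D4:**
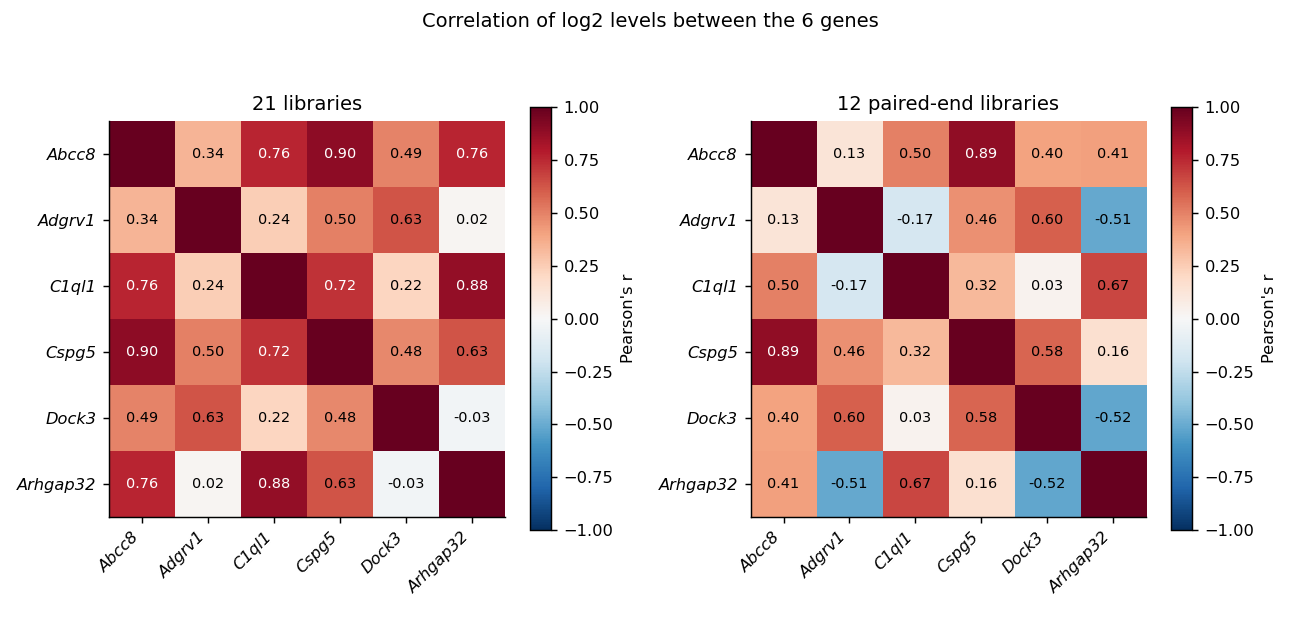
Pearson's r between the log2 levels of each pair of the 6 genes, over all 21 libraries (left) and over the 12 paired-end libraries, from 13 d.p.p. on (right), in colour from -1 to 1 with the value in each cell. *Abcc8* and *Cspg5* keep 0.90 and 0.89, and the pairs of *Arhgap32* with *Adgrv1* and *Dock3* turn from 0.02 and -0.03 to -0.51 and -0.52.

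Patterns were compared with those of 997 named genes that averaged 1 CPM or more. All of these came from the study's lists of genes that differed by genotype, in part in these libraries, so a likeness is a description only. Over the 21 libraries, the patterns most like *Abcc8* were those of *Foxf1* (r = 0.97) and *Urb1* (0.97). They were *Rffl* (0.96) for *Adgrv1*, and *Tagln3* (0.90) and *Adcy2* (0.89) for *C1ql1*. For *Cspg5* they were *Mtmr7* (0.96) and *Epha8* (0.96), for *Dock3* *Henmt1* (0.94) and *Celsr3* (0.91), and for *Arhgap32* *Shank3* (0.96) and *Apbb1* (0.95). *Rffl*, like *Adgrv1*, had a high mean in adult wild types (127 CPM) and a low one in adult mutants (5.44 CPM). *Mtmr7*, like *Cspg5*, had means of 25.8 CPM in wild types and 45.6 CPM in mutants at 0 d.p.p. and of 18.6 and 0.463 CPM at 21 d.p.p.

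Over the 12 paired-end libraries alone, *Henmt1* (0.93) stayed among the pair most like *Dock3*, and the pairs of the other 5 genes differed from those above: *Jag2* and *Abcc4* for *Abcc8*, *Apba2* and *Acsl5* for *Adgrv1*, *Snrnp40* and *Fhl1* for *C1ql1*, *Sohlh1* and *Trim71* for *Cspg5*, and *Cdk6* and *H1f4* for *Arhgap32*. Their r lay between 0.77 and 0.99, with the lowest for *C1ql1*, whose counts were the fewest.

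Neuronal markers were listed beside the 6 genes because of their background, and 15 of 30 could be matched to a row. The match came through lists that the study chose on these same samples, so their counts are not independent evidence of a direction. The same limit holds for every other list of genes below. At 0 d.p.p. 4 of 15 were called higher in mutants and 1 lower, at 9 d.p.p. 1 of 14 higher and 7 lower, at 13 d.p.p. 0 of 12 either way, at 21 d.p.p. 2 of 14 higher and 7 lower, and in adults 1 of 13 higher and 4 lower. Over all genes tested, 0.991% were called higher and 0.918% lower in newborns, 0.559% higher and 3.20% lower at 9 d.p.p., 0% higher and 0.121% lower at 13 d.p.p., 17.2% higher and 20.9% lower at 21 d.p.p., and 37.2% in each direction in adults. The median log2 fold change of the neuronal list was 0.09, -0.88, -1.27, -1.12 and 0.10 from 0 d.p.p. to adults, and that of all genes was 0.02, -0.01, 0.02, 0.04 and 0.14. Their summed level was 394 to 403 CPM in mutants and 284 to 316 CPM in wild types at 0 d.p.p., and 75.0 to 76.5 and 98.4 to 144 CPM at 9 d.p.p. Much of the gap in the sum at 0 d.p.p. lay in 1 gene, *Nptx1*, with 122 to 150 CPM in mutants and 37.3 to 62.5 CPM in wild types. At 9 d.p.p. the mutant libraries are of 1 animal, and with these summed and the third wild type included edgeR called 0 of 16275 genes (1522 at an unadjusted p below 0.05), so that every call of a listed gene at 9 d.p.p., here and below, was lost. *Stmn2* was at 0 counts in both adult wild types, and each of the other matched neuronal markers had counts in every group. Their part in the values of the 6 genes was not tested.

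*Nptx1*, the secreted neuronal pentraxin 1, was called in the same directions as the 6 genes, with log2 fold changes of 1.43 ± 0.192 at 0 d.p.p. (edgeR, adjusted p = 0.00215), -1.93 ± 0.0851 (7.7e-05) at 9 d.p.p., and, with an adjusted p of 3.9e-04, -2.69 ± 0.321 at 21 d.p.p. The lowest wild type of 9 d.p.p., at 10.5 CPM, lay within the mutants' range of 10.4 to 11.7 CPM. *Reln*, the extracellular guidance protein reelin, was called, among the 5 ages, at 9 d.p.p. alone (-0.99 ± 0.118, edgeR, adjusted p = 0.00249), as was the synaptic scaffold *Shank3* (-0.63 ± 0.0984, adjusted p = 0.00774).

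Of 54 genes listed as relatives or partners of the 6, 7 could be matched: *Abcc4*, *Adgrb2*, *Celsr3*, *Cbln1*, *Tnr*, *Tnc* and *Hapln1*. None of the channel partners of *Abcc8*, the stereocilia partners of *Adgrv1* or the other *Dock* and *Arhgap* genes listed was among them. In mutants 1 of 7 was called higher at 0 d.p.p., 3 lower at 9 d.p.p., 0 of 6 at 13 d.p.p., 2 higher and 5 lower at 21 d.p.p., and 2 higher and 1 lower in adults, with median log2 fold changes of 0.49, -0.70, -1.87, -2.52 and -0.40. The shares over all genes were those given with the neuronal list. *Abcc4*, an ABC transporter of the same subfamily as *Abcc8*, was lower in mutants at 21 d.p.p. (-3.72 ± 0.191, edgeR, adjusted p = 1.1e-05) and higher in adults (0.89 ± 0.170, adjusted p = 0.00203), and *Adgrb2*, another adhesion receptor, was lower at 21 d.p.p. (-2.52 ± 0.300, adjusted p = 3.9e-04). *Hapln1*, a link protein of the extracellular matrix, was higher in mutants at 21 d.p.p. (2.29 ± 0.373, edgeR, adjusted p = 0.00151), as was the matrix glycoprotein *Tnc* (1.37 ± 0.285, adjusted p = 0.00456). In adults *Tnc* was lower in mutants (-3.87 ± 0.326, edgeR, adjusted p = 2.7e-05) and *Hapln1* was higher (1.66 ± 0.277, adjusted p = 0.00104).

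Markers of other testis cells moved with genotype as well, and in whole testis fewer cells of a type and less RNA per cell cannot be told apart. All 16 germ cell markers were matched, and in mutants 1 was called higher at 0 d.p.p., all 16 lower at 9 d.p.p., 2 lower at 13 d.p.p., 14 lower at 21 d.p.p., and 3 higher and 10 lower in adults. For comparison, genes called lower made up 3.20% of all tested at 9 d.p.p., 0.121% at 13 d.p.p., 20.9% at 21 d.p.p. and 37.2% in adults. Genes called higher made up 0.991% in newborns and 37.2% in adults. The germ cell markers had a median log2 fold change of 0.22, -1.46, -3.75, -7.05 and -3.92 from 0 d.p.p. to adults. Their summed level was 1376 to 1695 CPM in mutants and 1154 to 1440 CPM in wild types at 0 d.p.p., 136 to 153 and 290 to 382 CPM at 9 d.p.p., 55.2 to 84.1 and 568 to 599 CPM at 13 d.p.p., 86.0 to 90.6 and 1765 to 2489 CPM at 21 d.p.p., and 252 to 266 and 4201 to 4705 CPM in adults. The germ cell markers thus overlapped between the genotypes at 0 d.p.p. and lay lower in mutants from 9 d.p.p. on, and none was at 0 counts in all libraries of a group. Their part in the values of the 6 genes was not tested.

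Sertoli cell markers were lower in mutants at birth and higher in adults. The 6 matched Sertoli cell markers summed to 1057 to 1332 CPM in mutants and 1753 to 2036 CPM in wild types at 0 d.p.p., with 4 of 6 called lower, and to 6143 to 6689 and 795 to 1098 CPM in adults, with 6 of 6 called higher. Their median log2 fold change was -0.73, 0.14, 0.41, 1.44 and 2.68 from 0 d.p.p. to adults. At 9 d.p.p. 0 of 6 were called higher and 1 lower, at 13 d.p.p. 0 either way, and at 21 d.p.p. 4 higher and 0 lower. Much of the sum at 9 d.p.p. lay in *Clu*, with 2455 to 2562 CPM in mutants and 2338 to 2421 CPM in wild types. Its log2 fold change there was 0.04 ± 0.0959 (edgeR, adjusted p = 0.805). Over all genes tested, 0.918% were called lower at 0 d.p.p., 3.20% lower at 9 d.p.p., 17.2% higher at 21 d.p.p. and 37.2% higher in adults. The 1 matched Leydig cell marker, *CYP11A1*, was higher in mutants at 0 d.p.p. (67.9 to 68.6 against 31.8 to 34.4 CPM) and in adults (610 to 789 against 20.0 to 30.4 CPM). At 9 d.p.p. it was called lower against the first 2 wild types (-0.44 ± 0.0720, edgeR, adjusted p = 0.00903), while the 3 wild types ran from 19.9 to 33.0 CPM around the mutants at 23.6 and 25.1 CPM. This marker thus had the signs of the 6 genes at both ages that chose them. At 21 d.p.p. its sign was opposite to theirs, with 366 to 497 CPM in mutants and 61.0 to 61.3 CPM in wild types (2.65 ± 0.240, edgeR, adjusted p = 1.2e-04). At 13 d.p.p. it was higher in mutants and not called (0.90 ± 0.344, edgeR, adjusted p = 0.420).

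Of the 2 matched macrophage markers, both were called higher in mutants at 21 d.p.p. and in adults and 1, *Mertk*, also at 9 d.p.p. The other, *Csf1r*, had the opposite sign at 9 d.p.p. and was not called (-0.62 ± 0.147, edgeR, adjusted p = 0.0314). Of the 4 matched peritubular and smooth muscle markers, 3 were called higher in adults, and *Tagln* was called lower at 9 d.p.p. (-0.45 ± 0.0672, edgeR, adjusted p = 0.00613) and at 21 d.p.p. (-1.04 ± 0.184, adjusted p = 0.00220). Of the 2 matched endothelial markers, 1 was called higher in adults, and *Vwf* was called lower at 9 d.p.p. (-2.34 ± 0.364, edgeR, adjusted p = 0.00762). For Schwann cells and glia only *Gfra3* and *Gjc3* of 14 were matched. *Gfra3* was lower in mutants at 9 d.p.p. (-2.28 ± 0.254, edgeR, adjusted p = 0.00179) and at 21 d.p.p. (-4.13 ± 0.504, adjusted p = 4.2e-04), and *Gjc3*, a glial connexin, was higher at both ages (0.63 ± 0.10, adjusted p = 0.00844, and 1.46 ± 0.214, adjusted p = 9.4e-04). Of all genes tested, 0.559% were called higher and 3.20% lower at 9 d.p.p., 17.2% higher and 20.9% lower at 21 d.p.p., and 37.2% in each direction in adults. The part of the cells of these lists in the values of the 6 genes was not tested.

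**Figure D5:**
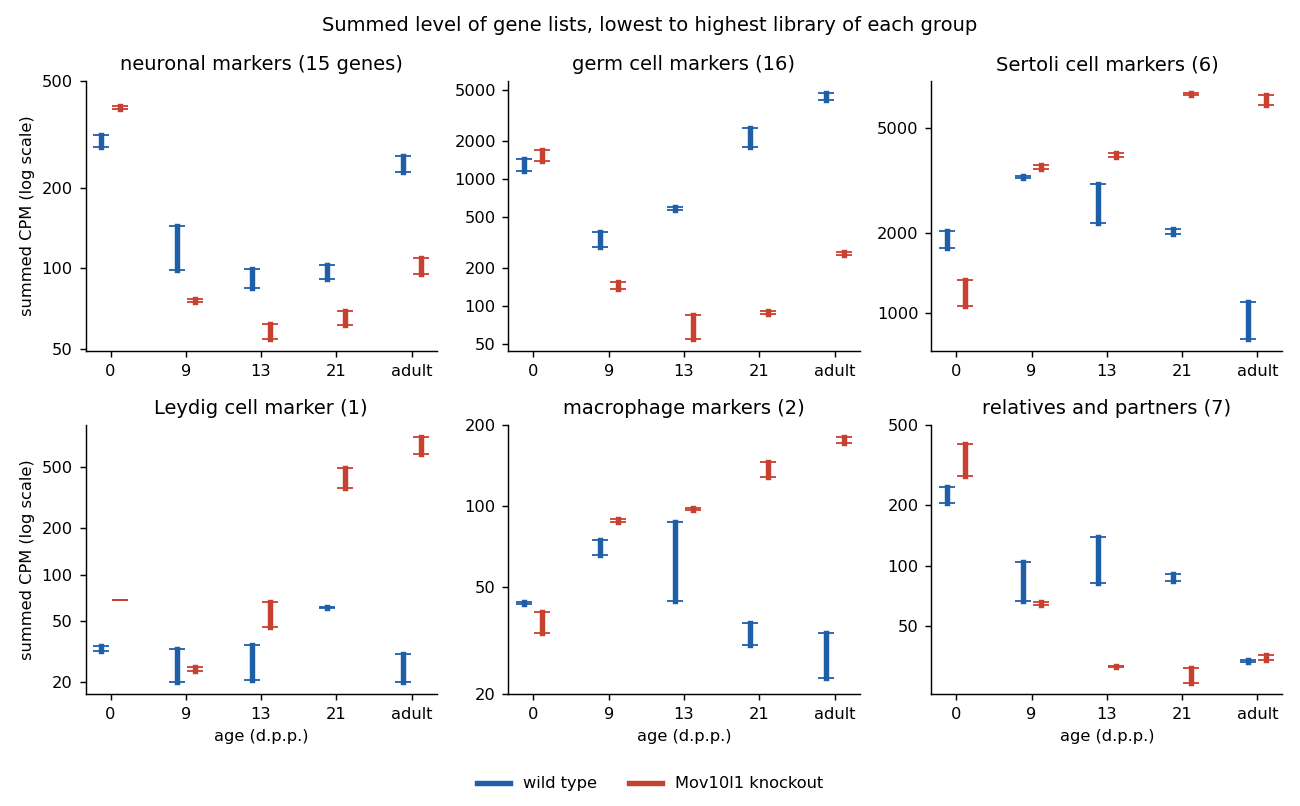
Summed level (CPM, log scale) of 6 gene lists at 0, 9, 13 and 21 d.p.p. and in adults; each bar runs from the lowest to the highest library of wild-type (blue) or *Mov10l1*-/- (red) testes, and the number of matched genes stands in each title. The neuronal list lies higher in mutants at 0 d.p.p. and lower from 9 d.p.p. on, the germ cell list overlaps at 0 d.p.p. and lies lower in mutants afterwards, and the Sertoli cell list lies lower in mutants at 0 d.p.p. and higher afterwards.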

How the data were processed

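Whole testes of wild-type and *Mov10l1*-/- hamsters were sequenced as rRNA-depleted, stranded libraries. The authors deposited estimated counts per gene for 21 libraries, made with STAR 2.7.3a on MesAur1.0 and featureCounts 2.0.0 over exons of Ensembl release 99, with reads shared between genes or sites split into fractions. The paper's methods, the labels and the values are the sources for this. The values were not normalised, the libraries were not pooled, and splitting can spread reads between near-identical or overlapping genes. Gene names and positions came from the gene columns of the study's supplementary lists, which name 1042 of 22285 rows. Totals of 3550217 to 77527451 counts set the precision.

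The counts were rounded and analysed in R 4.3.3 with edgeR 4.0.16 (TMM scaling, filterByExpr, quasi-likelihood test, two-sided, Benjamini-Hochberg over all genes tested, called at an adjusted p below 0.01, the study's threshold), each age or age step alone. SEs were taken from the F statistic. The third wild type of 9 d.p.p. stayed out of the fits, after the study's use of 2 libraries per genotype and age. CPM used TMM factors over the 21 libraries. The procedure was tested on simulated data. Named beside the 6 genes were *Mov10l1*, the 2 named genes with the highest correlation of log2(CPM + 0.5) to each gene, and at most 4 genes of a list, those with the highest mean CPM. Of the genes that this rule names, 2 are not reported here. The 6 genes and the lists were chosen with earlier results of these data known.

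Alternatives were DESeq2 1.42.0, RLE size factors (those of DESeq2, used in edgeR), other filters on low counts, leaving out each library, the replicate number as a block, a joint fit of 12 libraries and, at 9 d.p.p., all 5 libraries or the mutant libraries summed. Library totals in place of TMM, the test of the genotype difference between ages, and the ratios within animal codes were chosen after seeing the data.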

Additional observations from a re-analysis of the deposited data

Results flagged for a closer look

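The genotype difference itself differed between ages for 4 of the 6 genes, by contrasts in the joint edgeR fit of the 12 paired-end libraries, a test chosen after seeing the data. From 21 d.p.p. to adults the log2 fold change of mutants over wild types moved by -4.79 ± 0.517 (SE) in *Adgrv1* (adjusted p = 2.9e-05), by 2.54 ± 0.531 in *Cspg5* (0.00236), by 1.88 ± 0.387 in *Arhgap32* (0.00216) and by 2.56 ± 0.505 in *Abcc8* (0.00169). *Dock3* (1.31 ± 0.365, adjusted p = 0.0115) and *C1ql1* (0.35 ± 1.05, adjusted p = 0.815) were not called. The median over all 16580 genes was 0.30, and 29.9% of genes were called.

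From 13 d.p.p. to adults it moved by -4.49 ± 0.533 in *Adgrv1* (edgeR, adjusted p = 2.6e-05), by 2.97 ± 0.544 in *Cspg5* (5.6e-04) and by 2.95 ± 0.521 in *Abcc8* (4.3e-04), where 45.4% of genes were called and the median over all genes was 0.39. *Arhgap32* (1.06 ± 0.385, adjusted p = 0.0315), *Dock3* (0.80 ± 0.384, adjusted p = 0.0926) and *C1ql1* (1.06 ± 1.12, adjusted p = 0.434) were not called. From 13 to 21 d.p.p. none of the 6 was called, where 4.04% of genes were, and the values lay between -0.82 in *Arhgap32* and 0.72 in *C1ql1*. *Adgrv1* thus parted further between the genotypes in adults, by the rise in wild types to 393 and 474 CPM, while *Cspg5* and *Abcc8* drew together.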

How the results depend on the processing

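Beyond the values above, the number of genes called depended strongly on the setting, and the cause was not tested except where fewer genes or libraries enter by construction. For mutants against wild types, DESeq2 called 694 genes at 0, 1063 at 9 and 307 at 13 d.p.p., against 312, 585 and 16. It called 1177 in the wild-type and 2280 in the mutant step from 13 to 21 d.p.p., against 547 and 1335. With no filter on low counts these 5 numbers were 1273, 1648, 430, 1575 and 3293. At 13 d.p.p. RLE size factors gave 25, at least 10 counts in every library gave 4 and the joint fit gave 341. At 9 d.p.p. all 5 libraries gave 65, and summed mutant libraries gave 0.

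Of the 6 genes, 0 were called at 9 d.p.p. in either of the last 2 settings. At 13 d.p.p. 3 were called with DESeq2, with no filter or in the joint fit. In adults 1 was called, *Adgrv1*, with DESeq2, RLE size factors, at least 10 counts in every library or the joint fit. In the wild-type step from 13 to 21 d.p.p. 1 was called with DESeq2 or no filter, and in the mutant step 2 with no filter. With library totals 5 were called in the wild-type step from 21 d.p.p. to adults. In that setting 6230 of 15287 genes were called and the median log2 fold change over all genes was -0.49. In the mutant step library totals gave 2714 genes in place of 4306.

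Signs turned only for values that were not called. These were *C1ql1* from 0 to 9 d.p.p. in wild types (0.018 with no filter), *Cspg5* in the same step (-0.22 with library totals), *Abcc8* from 13 to 21 d.p.p. in wild types (-0.22 with library totals), and in mutants *Cspg5* (-0.019 with DESeq2, -0.31 with library totals) and *Adgrv1* (-0.26 with library totals).

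Without each library in turn, genes called ranged from 206 to 791 at 0 d.p.p., 366 to 2322 at 9, 90 to 251 at 13, 2524 to 5985 at 21 d.p.p. and 10282 to 11609 in adults, with 3 to 6, 3 to 6, 0 to 3, 4 to 5 and 1 to 2 of the 6 genes called. In the step from 13 to 21 d.p.p. 25 to 1043 genes were called in wild types and 892 to 2149 in mutants, with 0 to 1 of the 6 in mutants, and in the step from 21 d.p.p. to adults 5707 to 7892 and 2232 to 3849, with 0 to 2 of the 6 in mutants. The values that turned ranged from -0.55 to 0.16 for *Arhgap32* at 13 d.p.p., from -0.35 to 0.58 for *C1ql1* from 0 to 9 d.p.p. in wild types and from -0.35 to 0.026 for *Dock3* from 21 d.p.p. to adults in wild types. From 13 to 21 d.p.p. they ranged from -0.65 to 0.076 for *Arhgap32*, -0.40 to 0.55 for *Abcc8* and -0.68 to 0.67 for *Adgrv1* in wild types, and from -0.27 to 0.70 for *Abcc8*, -0.26 to 0.45 for *Adgrv1* and -0.40 to 0.45 for *Cspg5* in mutants. A lone library left in a group is assumed to vary like the others.

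The replicate number as a block gave 1313 genes at 0 and 490 at 13 d.p.p., where at the latter age 3 of the 6 genes were called, and in adults 1 of the 6. It changed no other call on the 6 genes. Deviations of same-numbered samples correlated at 0.07, -0.13, 0.16, -0.24 and 0.10 from 0 d.p.p. to adults, and the labels do not say that a number marks a pairing.

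Low counts limited *C1ql1* from 13 d.p.p. on, with at most 19 counts in a library. Libraries with large totals had few as well, such as the second adult mutant with 5 of 40918552 counts. Both mutant libraries of 9 d.p.p. came from the same animal. Age, read layout and animal cannot be told apart between 9 and 13 d.p.p., and no exon-level reading of the 6 genes was possible from counts per gene.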
